A study of Ictalurus punctatus with 24 samples.

Results

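The antigen receptor gene segments of channel catfish (Ictalurus punctatus) were followed through 203 of the 63022 rows of the count tables. They were chosen by their row names alone: the tables count most features by transcript, and the 203 rows are those named by a gene segment that has no transcript record. In the RefSeq annotation of the Coco_2.0 genome, 182 of them are V segments and 21 are C regions, which were all the genes of these kinds in that annotation. It does not say which rows belong to immunoglobulins and which to T-cell receptors, so rows are grouped below by kind and chromosome, and carry no receptor name.

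Fish ate feed with 0, 50 or 300 g per kg of frass, the waste of black soldier fly larvae, for 10 weeks (control, low-frass and high-frass diets). Intestine and liver were each sequenced as 4 libraries per diet, 24 in all. Each library was a pool of tissue from 3 fish according to the labels, and the study's methods give a different number. The diets differed in frass and in the plant ingredients it replaced, and p-values measure the spread between pools.

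B cells and T cells recognise antigen through receptors whose variable part is encoded by a V segment, joined by DNA rearrangement to shorter segments and read together with a C region, which encodes the constant part. A lymphocyte and its descendants carry the same rearrangement, so a clone uses the same V segment throughout, while other clones use others. In fish, lymphocytes and antibody-secreting cells reside in the lining of the gut. In bulk tissue, fewer lymphocytes and less receptor RNA per lymphocyte cannot be told apart.

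The library totals were 12534783 to 17371695 counts in the intestine and 12076582 to 15604418 in the 10 liver libraries kept by the study. The study removed 2 liver libraries, high-frass replicate 3 (B1) for low RNA integrity and low-frass replicate 3 (B2) as an outlier in principal components, and both are shown apart here. The library labelled low-frass liver replicate 3 went against its tissue label. Its summed level of 9 hepatocyte genes was 1270 CPM (a row's count scaled to a common library size), against 162000 to 238000 CPM in the kept livers and 237 to 2270 CPM in the intestine. Of that sum 589 CPM came from apoba, an apolipoprotein gene also counted in the gut, and the other 8 genes lay above every intestine library and below every kept liver, such as hpxa (hemopexin) at 508 CPM, against 115000 CPM or more in the kept livers and at most 97.6 CPM in the intestine. Cubilin (cubn), a receptor for protein uptake in absorptive epithelium, stood at 1730 CPM in it, against 0 to 1.21 CPM in the kept livers. The intestine libraries themselves fell into 2 clusters of 6 across the diets, described below and named by cubn and by the peptide transporter slc15a1b.

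The segments lay in 11 stretches of 7 chromosomes for V rows and 4 for C rows. The largest stretch, on chromosome 2 from 16106838 to 17050059, held 90 V rows and 1 C row and ended 22579 bases before ighd, the gene of the immunoglobulin D heavy chain. Chromosome 9 (22715085 to 22941162) held 26 V rows, chromosome 7 held 10, chromosome 8 held 4 and chromosome 25 held 5, without any C row. Chromosome 14 held 25 V and 18 C rows in 3 stretches, each with rows of both kinds. There 23 of 42 neighbouring pairs were of unlike kind, a count that does not show a regular order. Chromosome 19 held 22 V rows and 1 C row, and chromosome 3 a lone C row. The 5 rows of chromosome 25 had nitr3, nitr10 and nitr11, members of a family of immune-type receptors of bony fish, within 150 kb. The span of a row had a median of 666 bases for V and 2215 for C, and 32 of the 203 rows overlapped the span of another gene. The counting ignored strand, so reads of overlapping genes cannot be told apart, and reads of near-identical segments are uncertain.

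The rows were sparsely counted. Over the 12 intestine libraries they summed to 4386 counts, with 137 to 963 per library, and over the 10 kept livers to 420 counts, with 20 to 82 per library. In the intestine, 158 V rows and all 21 C rows had a count in some library, and in the kept livers 65 V and 18 C rows had one. A count in both tissues was seen for 82 rows, and 21 rows had none in any of the 24 libraries. The median row held 6 intestine counts, while the 10 largest rows held 38.3% of all of them. In a single library, 55 to 111 rows had a count in the intestine and 12 to 26 in the kept livers.

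**Figure D1:**
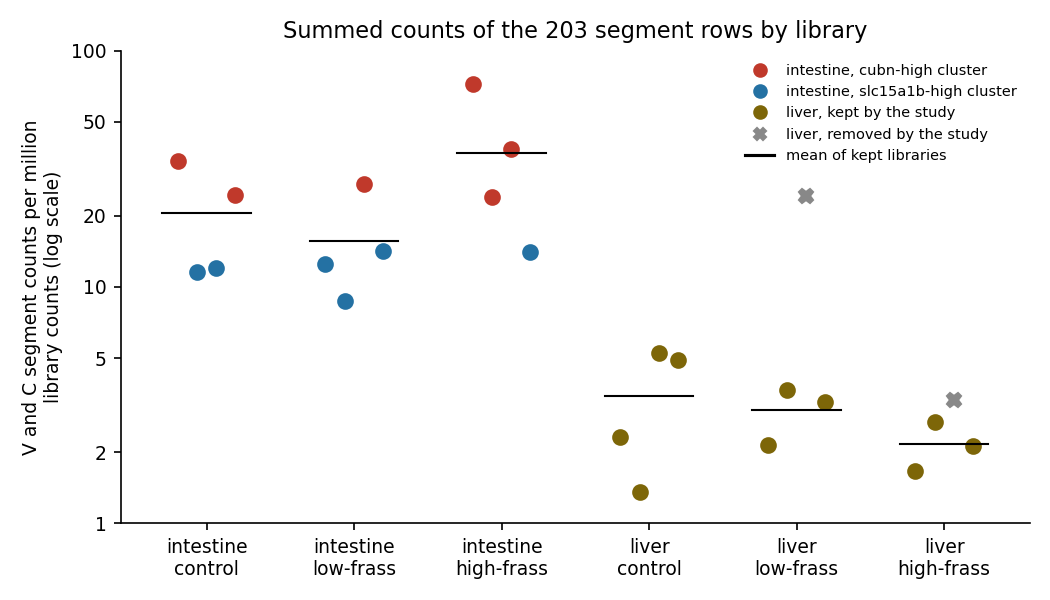
Summed counts of the 203 V and C segment rows scaled to library size, in CPM (log scale), for each library, by tissue and diet; points are libraries, bars are means of kept libraries, and crosses are the 2 livers the study removed. The intestine libraries sit between 8.70 and 72.1 CPM and the kept livers between 1.36 and 5.25 CPM, with the removed low-frass liver at 24.3 CPM.

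Scaled to library size, the segments stood at a mean of 24.4 CPM in the intestine and 2.94 CPM in the kept livers (SD 17.8, n = 12, and SD 1.32, n = 10), and the tissues did not overlap on this scale. Both the size of the difference and the lack of overlap depended on the scaling. With library totals it was 8.32-fold, and with TMM, which sets the bulk of genes level between libraries, it was 1.97-fold (12.1 CPM in intestine and 6.15 CPM in liver), and the tissues overlapped, at 4.91 to 32.9 CPM in the intestine and 2.99 to 11.8 CPM in the kept livers. The TMM factors were 1.45 to 2.43 in the intestine and 0.41 to 0.529 in the kept livers, and the median log2 fold change of all features tested was 0.43 with TMM and 2.39 with library totals.

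What kind of segment made up these counts differed between tissues, and a share of the segment counts does not depend on that scaling. C rows took 17.5% of segment counts in the intestine (766 of 4386, Wilson 95% interval 16.4% to 18.6%) and 61.2% in the kept livers (257 of 420, 56.4% to 65.7%). Library by library, the C share was 9.71% to 25.7% in the intestine and 39.3% to 68.9% in the kept livers, so no library of either tissue reached the other. The intervals cover counting error only. The V rows were 17.5-fold higher in intestine with library totals and 4.13-fold higher with TMM, whereas the C rows were 2.39-fold higher with library totals and at a ratio of 0.563, lower in intestine, with TMM.

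Within the V rows, chromosomes 9 and 7 stood furthest apart between the tissues. Chromosome 9 rows had 667 counts in the intestine and 8 in the kept livers, 15.2% (14.2% to 16.3%) and 1.90% (0.968% to 3.71%) of segment counts. Chromosome 7 rows had 312 and 3 counts, or 7.11% and 0.714%, in intestine and liver. Chromosome 2 rows were the largest V group in both tissues, with 2015 counts (45.9%) in the intestine and 96 (22.9%) in liver. On chromosome 14 the V rows took 8.19% of intestine and 8.81% of liver segment counts, with overlapping intervals (7.41% to 9.03% and 6.46% to 11.9%). Of their 359 intestine counts, 101 were those of a single row, LOC128634961, in high-frass replicate 3. The share was 18.4% in that library and 4.46% to 11.7% in the other intestines. V rows of chromosome 19 were near the floor in both tissues, with 45 and 11 counts in intestine and liver, a ratio of 3.17 with library totals and 0.701 with TMM.

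**Figure D2:**
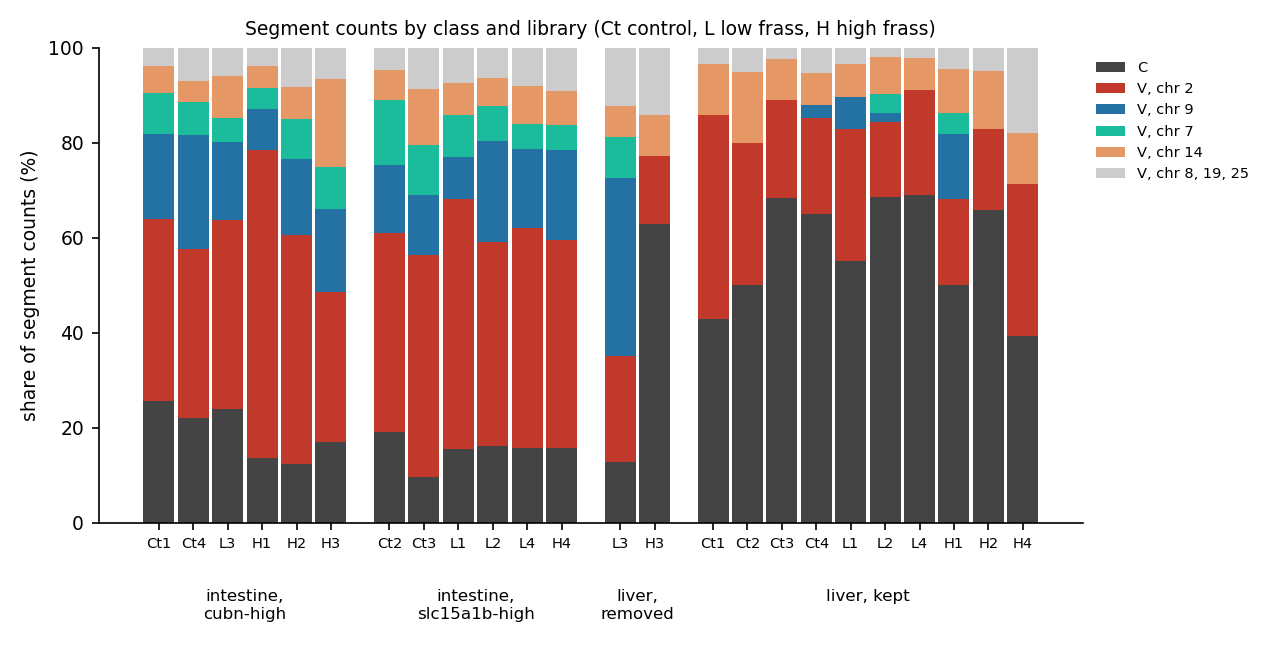
Share of each library's segment counts (%) taken by C rows and by V rows of each chromosome; each bar is a library, grouped by intestine cluster and liver set, with Ct, L and H for control, low-frass and high-frass replicates. C rows take 39.3% to 68.9% in the kept livers and 9.71% to 25.7% in the intestine, and the removed low-frass liver (12.7%) lies within the intestine range.

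Among single rows, 7 were counted highly enough to be tested between tissues. A row that passes the filter only through the tissue where it is high is favoured to differ. Of these, 3 were higher in intestine and 0 lower at an adjusted p under 0.05 and a fold above 2 (edgeR; 37.1% of all 10895 features tested were called higher and 17.9% lower). Of all features, 55% were called by edgeR and 55.2% by DESeq2, which also called 3 of the rows. The 3 rows called higher by edgeR had 0, 1 and 3 counts over all kept livers. They were thus tested through the intestine, and their adjusted p-values do not by themselves show a tissue difference.

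LOC108267353, a V row at chr7:716670-718151, had 20, 1, 1 and 8 counts in control, 2, 2, 2 and 2 in low-frass and 11, 2, 17 and 3 in high-frass intestines, against 0 in every kept liver. Against a floor of 3 counts over the kept livers, it was at least 18-fold higher in intestine with library totals and at least 4.55-fold with TMM (adjusted p = 0.00513, edgeR). LOC124628514, a V row at chr9:22810668-22811509, had 1 to 23 counts in every intestine library, against 1 count in all 10 kept livers. The ratio of intestine to liver was 68.5 with library totals (exact 95% counting interval 12 to 2740) and 17.3 with TMM (3.03 to 692), with an adjusted p of 0.00146 in edgeR and 0.00182 in DESeq2. Its fitted log2 fold change depended on the tool, at 4.07 in edgeR and 2.68 in DESeq2. LOC108280178, a V row at chr2:16158194-16160084, had 3 to 23 counts per intestine library and 3 counts in all over the kept livers. Its ratio was 28.9 with library totals (9.65 to 142) and 7.31 with TMM (2.44 to 36), with an adjusted p of 0.00097 in edgeR. This row overlaps the span of another gene.

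The 4 other rows tested were among the 5 most counted rows of the liver, and did not pass. LOC108277968, a V row of chromosome 2, had a log2 fold change of 0.96 (adjusted p = 0.146, edgeR). The C rows LOC108262917 of chromosome 3, LOC108261469 and LOC128634930 of chromosome 14 had values of -0.76, -0.64 and -0.46 with TMM, and of 1.22, 1.39 and 1.57 with library totals, so that their direction turned with the scaling. With library totals 6 of the 7 rows were called higher and 0 lower (backgrounds 80.9% and 6.93%, 87.8% in all). Leaving out replicate 3 of every group left 1 call, and leaving out replicate 1 gave 5 rows higher and 1 lower, the lower one being LOC108261469 (-1.39, adjusted p = 0.0113, edgeR).

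Without the filter on low counts, 180 rows could be fitted, and 21 were called higher and 2 lower in intestine (backgrounds 20.1% and 10.5%, 30.6% in all, edgeR). By chromosome, 10 of 24 chromosome 9 rows, 5 of 10 chromosome 7 rows, 5 of 75 chromosome 2 V rows and 1 of 5 chromosome 25 rows were called higher. Both rows called lower were C rows. LOC108277563, the C row of chromosome 2, had 30 counts over 12 intestines and 38 over 10 livers, a log2 fold change of -2.67 (adjusted p = 0.00113, edgeR), and LOC124628875 of chromosome 14 had 3 and 4 counts (adjusted p = 0.0423), too few for a fold change to be given. Both calls are with TMM over both tissues, and the fit with library totals did not include these rows. Scaled within each tissue, the mean of LOC108277563 was 0.181 CPM in the intestine and 0.267 CPM in the kept livers, values that share no scale and do not compare the tissues. In the kept livers LOC108277563 was counted in 9 of 10 libraries.

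The liver's segment counts were concentrated in few C rows. LOC108261469 had 71 counts in the kept livers, LOC108262917 had 64, LOC108277563 had 38 and LOC128634930 had 28. In the intestine these rows held 239, 177, 30 and 97 counts. Of the remaining 17 C rows, LOC128634958 (37 intestine counts), LOC124628877 (31) and LOC108274554 (30) were the most counted in the intestine, and LOC124628913 (13) in liver.

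In the intestine, many V rows of chromosome 2 had a large share of their counts in a single library. Among rows with 30 or more intestine counts, the highest library held a median of 42.8% of a chromosome 2 V row's counts (20 rows, 18.0% to 95.7%), and 11 of the 20 had over 40% in 1 library. For chromosome 9 V rows the median was 23.3% (10 rows, 14.8% to 38.9%), and 0 of 10 were over 40%. For C rows it was 32.3% (7 rows, 20.9% to 66.7%), and 3 of 7 were over 40%, so such rows were not confined to chromosome 2 V rows. Among the other V rows, 1 of 2 was over 40% on chromosome 14, 0 of 4 on chromosome 7 and 0 of 2 on chromosome 25. Of all features with 30 or more counts, 2.08% were over 40%, and their median was 15.4%. These features were not matched to the segment rows in depth, and counting error alone raises the highest share of a row with few counts. These shares are descriptions, with no test between the chromosomes.

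**Figure D3:**
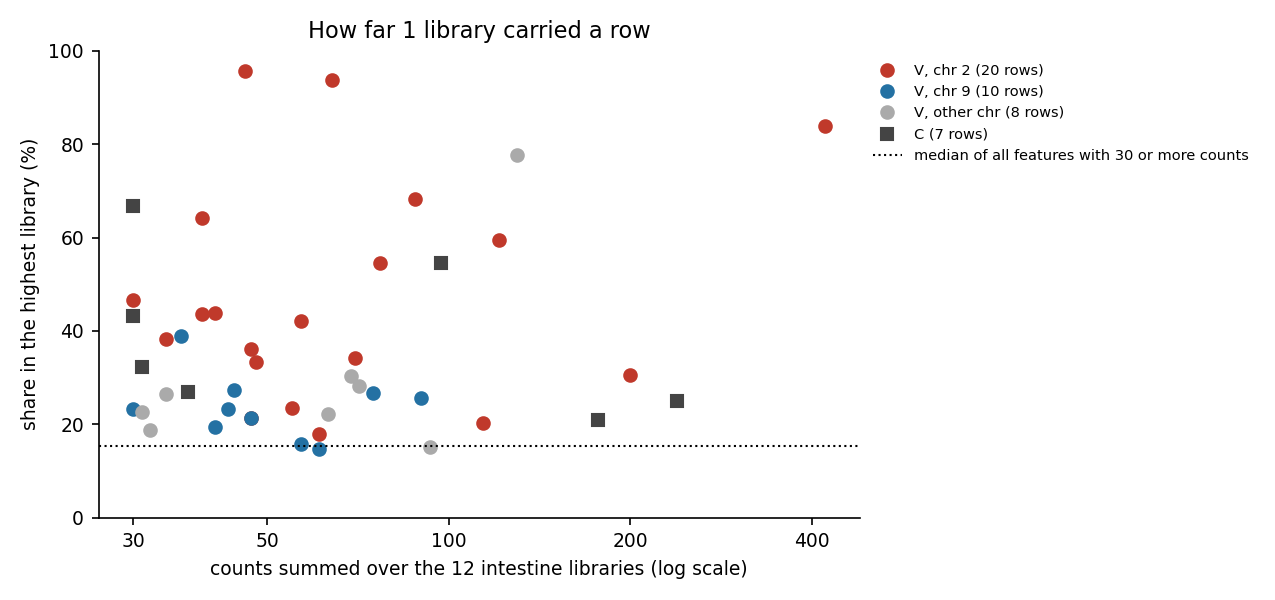
Share of a row's intestine counts found in its highest library (%), against its counts summed over 12 intestine libraries (log scale), for the 45 rows with 30 or more counts; each point is a row. Chromosome 2 V rows reach 95.7%, C rows reach 66.7%, and chromosome 9 V rows lie between 14.8% and 38.9%. The dotted line is the 15.4% median of all features with 30 or more counts, which are not matched to the rows in depth.

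LOC108277905, a V row at chr2:16892601-16893236, was the most counted of all 203 rows. It had 6, 1, 0 and 3 counts in control, 3, 2, 46 and 0 in low-frass and 353, 3, 1 and 3 in high-frass intestines. High-frass replicate 1 alone held 83.8% of its 421 counts, and the row made up 36.7% (33.7% to 39.7%) of that library's segment counts. In the liver of the same pool code it had 1 count.

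Other rows peaked in other libraries (those outside the rule for named rows were chosen after their values were seen). LOC108277638 had 60 of its 64 counts in high-frass replicate 3, and LOC108277960 had 44 of 46 in high-frass replicate 1. LOC128634961, a V row of chromosome 14, had 101 of 130 in high-frass replicate 3, with 8 or fewer in every other intestine. LOC128629519 had 72 of 121 in high-frass replicate 2, and LOC128629329 had 60 of 88 in control replicate 1. Among C rows, LOC128634930 had 53 of 97 in low-frass replicate 3 and LOC108274554 had 20 of 30 in high-frass replicate 1, and both overlap the span of another gene, as do the V rows LOC108277638, LOC108277960 and LOC128634961. The 15 rows over 40% had their peaks in 7 of the 12 libraries, 6 of them in high-frass replicate 1.

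At the other end were rows counted alike across the pooled libraries. LOC108261090, a V row of chromosome 25, had 8, 4, 8 and 10 counts in control, 7, 4, 8 and 7 in low-frass and 9, 14, 8 and 6 in high-frass intestines. Only 10 of the 203 rows had a count in all 12 intestine libraries.

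**Figure D4:**
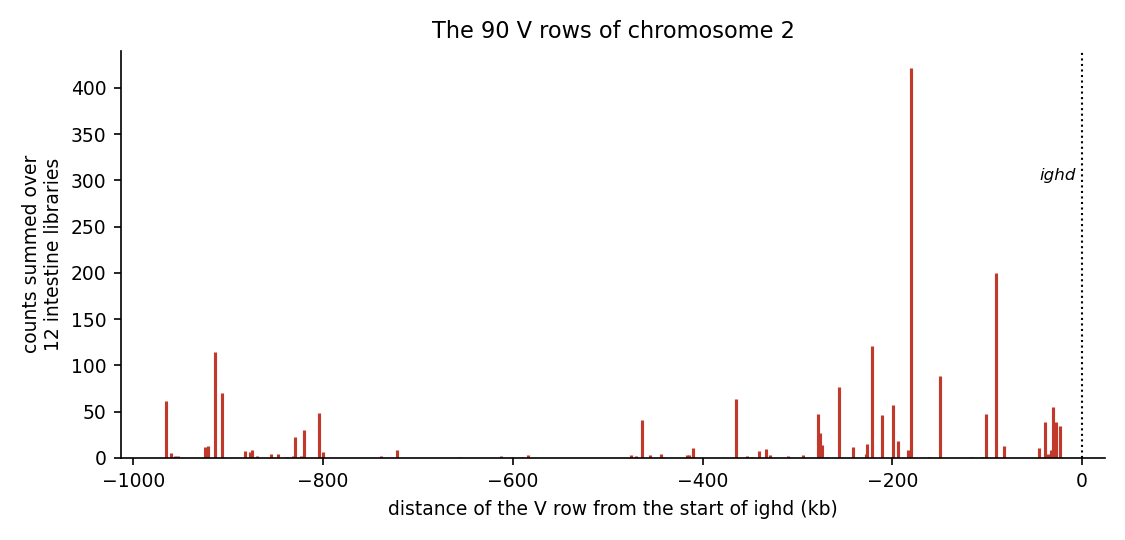
Counts summed over the 12 intestine libraries (vertical lines) for the 90 V rows of chromosome 2, by their distance in kb from the start of ighd (dotted line). The rows nearest ighd, between 22.6 and 258 kb, hold 1321 counts, and those between 494 and 730 kb hold 17. Most of the rows between 494 and 730 kb overlap the span of another gene.

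Along chromosome 2, counts followed the position in the stretch unevenly. When the stretch was cut into 4 equal parts, the part nearest ighd had 28 V rows and 1321 intestine counts, of which 900 remained without LOC108277905. The part from 258 to 494 kb had 31 rows and 252 counts, the part from 494 to 730 kb had 8 rows and 17 counts, and the farthest part had 23 rows and 425 counts. Most rows from 494 to 730 kb overlap the span of another gene, where reads cannot be told apart. How far this changed their counts was not tested.

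The 12 intestine libraries formed 2 clusters when grouped on 10396 features without the segment rows. In 6 libraries (control replicates 1 and 4, low-frass replicate 3, high-frass replicates 1, 2 and 3) cubn was at 850 to 3090 CPM, and in the other 6 (control replicates 2 and 3, low-frass replicates 1, 2 and 4, high-frass replicate 4) at 6.78 to 26.0 CPM. The transporter slc15a1b was at 29.4 to 153 CPM in the cubn-high libraries and at 4150 to 42100 CPM in the slc15a1b-high ones. In zebrafish, slc15a1b marks the front of the gut and cubn its rear; which stretch was sampled is not given in the sources used here. Other genes of the posterior gut list did not all follow cubn: the list's sum overlapped, at 7690 to 10700 CPM in cubn-high and 2490 to 11600 CPM in slc15a1b-high libraries, and the means of fabp6 (1500 and 2130 CPM) and mamdc4 (900 and 1130 CPM) were lower in the cubn-high libraries. The clusters come from the data, so what follows is a description with no test.

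Segment rows were higher in the cubn-high libraries, at 31.3 ± 15.7 CPM (TMM within intestine, 19.7 to 62.0) against 14.4 ± 3.25 CPM (9.26 to 18.2) in the slc15a1b-high libraries (SD, n = 6 each). The ranges did not overlap, and the ratio of the means was 2.17. Without LOC108277905 it was 1.89, with the lowest cubn-high library at 19.5 CPM and the highest slc15a1b-high library at 17.9 CPM, and without high-frass replicate 1 it was 1.75. Both kinds of row had a higher mean there, with a ratio of 2.10 for V rows and 2.57 for C rows, and C rows overlapped between the clusters.

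**Figure D5:**
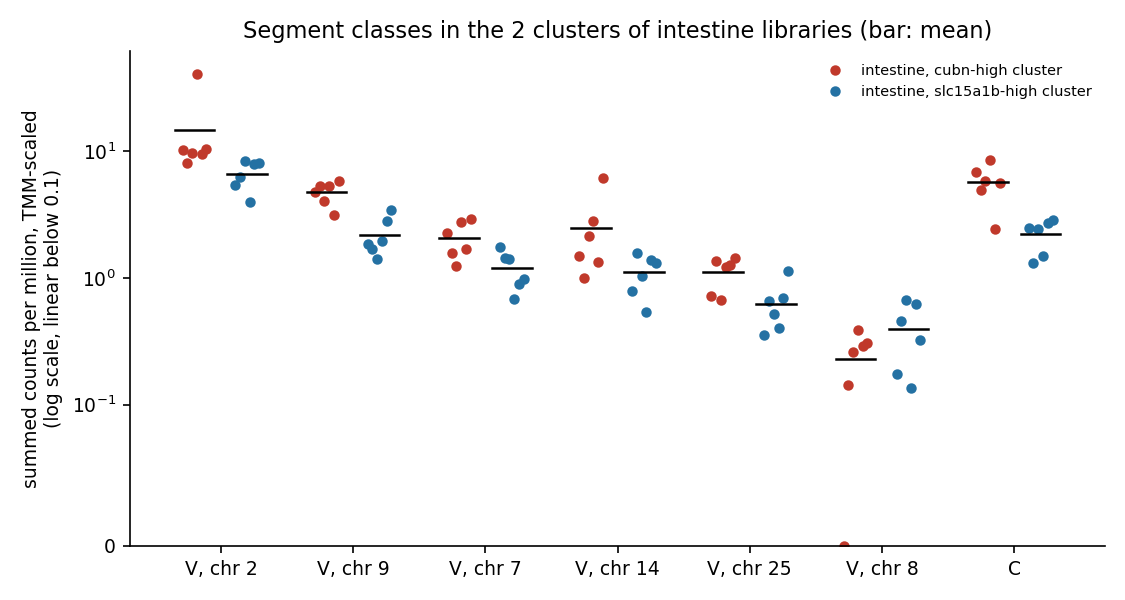
Summed TMM-scaled CPM (log scale, linear below 0.1) of 6 V groups and the C rows in the cubn-high and slc15a1b-high intestine libraries; points are libraries and bars are means, n = 6 each. Chromosome 9 V rows sit at 3.13 to 5.78 CPM in the cubn-high and 1.40 to 3.43 CPM in the slc15a1b-high libraries, and chromosome 8 V rows are the group with the lower cubn-high mean.

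Chromosome 9 V rows stood at 4.73 ± 0.991 CPM in cubn-high and 2.19 ± 0.770 CPM in slc15a1b-high libraries, and all 16 of these rows with 10 or more counts had the higher mean in cubn-high libraries. Over all chromosomes 61 of 86 such rows did. The share of all features with the higher mean there is not given, so these counts describe the rows only. Chromosome 8 V rows ran the other way, at 0.231 ± 0.138 CPM in cubn-high and 0.397 ± 0.223 CPM in slc15a1b-high libraries, on 24 and 33 counts. Of the 86 rows, 1 had no overlap between clusters, the C row LOC108261469 of chromosome 14 (6.77% of all features with 10 or more counts did not overlap with cubn-high higher, and 7.01% with slc15a1b-high higher). It had 60, 26, 17, 36, 13 and 42 counts in the cubn-high libraries and 5, 5, 9, 10, 8 and 8 in the slc15a1b-high ones.

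The summed level of 12 T-cell genes was 140 to 191 CPM in cubn-high and 69.5 to 124 CPM in slc15a1b-high libraries. The most counted were ccr7, a homing receptor, itk, a T-cell kinase, and cd8a, the coreceptor of cytotoxic T cells. Of the listed T-cell genes only cd247l had the lower mean in cubn-high libraries (6.3 CPM, and 8.5 CPM in slc15a1b-high libraries). The B-cell list was at 2.48 to 7 CPM in cubn-high and 1.01 to 2.29 CPM in slc15a1b-high libraries, mostly from cd79a and cd79b, the signalling chains of the B-cell receptor. Its members btk, pax5 and ebf1b had the lower mean in cubn-high libraries, on at most 7 counts per library. The myeloid list was at 430 to 634 CPM in cubn-high and 164 to 538 CPM in slc15a1b-high libraries, and the plasma cell and secretion list at 322 to 461 and 543 to 713 CPM in cubn-high and slc15a1b-high libraries, mostly from xbp1, a regulator of secretory cells (mean 304 and 554 CPM), while irf4a (62.4 and 34.4 CPM) and prdm1a (7.92 and 4.31 CPM), regulators of plasma cell formation, had the higher mean in the cubn-high libraries. In the kept livers the T-cell list was at 1.32 to 2.39 CPM and the B-cell list at 0.869 to 3.78 CPM. These values are scaled within each tissue, so they do not compare the tissues. In the edgeR fit over both tissues with TMM, all 7 T-cell genes tested were called higher in intestine, as were 37.1% of all features. In the liver fits 0 T-cell genes passed the filter. The 7 genes were thus tested through the intestine, which favours a call higher there. The 2 B-cell genes tested, cd79a and cd79b, were called lower in intestine (adjusted p = 0.0173 and 0.000403, edgeR), as were 17.9% of all features. The direction of such a difference can turn with the scaling, as it did for C rows above. The gene rag1, which cuts DNA in rearrangement, was at 0 in every library, as were blnk, ebf1a, blk, lat and tcf7 and ighd. Each of these genes has 2 or more transcripts, and genes with several transcripts lose shared reads in this counting. A 0 therefore does not show that the gene was silent. Another recombination gene, rag2, with 1 transcript, had 2 to 15 counts in cubn-high and 1 to 16 in slc15a1b-high libraries. The part of the listed cell types in the segment counts was not tested.

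The study asked whether frass changed expression, and at the depth of these rows no diet response was detectable in single segments. From sequencing, the paper reports an immunoglobulin-like V-region gene as lower in low-frass intestines. By quantitative PCR it reports immunoglobulin M as lower in the intestine and variably higher in liver with frass. The paper places the larger liver rises at doses between low and high frass, which were not sequenced. Which rows here, if any, match these was not determined. In the intestine 5 rows passed the filter, and 0 were called for either diet (0% of 10401 features by edgeR for either diet), 0 had an unadjusted p under 0.05 (1.04% of features in low-frass and 2.84% in high-frass) and DESeq2 called 0 (0.00961% and 0.0192%). The largest change was that of LOC124628514, at 1.31 (SE 0.65, adjusted p = 0.998, edgeR) in high-frass intestines, and 0.97 to 1.95 when a library was left out, the highest without control replicate 4. With 15, 6, 23 and 11 counts in high-frass and 7, 2, 1 and 10 in control intestines, the groups overlapped. LOC108277968 was at -1.18 (SE 0.73, adjusted p = 1, edgeR) in low-frass intestines, a value that was 0.09 without control replicate 3, which had 61 of the row's counts.

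Without the filter, 179 intestine rows were fitted and 0 were called for either diet (0% of 23727 features, edgeR). An unadjusted p under 0.05 was reached by 13 of the 179 rows in low-frass intestines, 7 higher and 6 lower (1.94% of features), and by 16 in high-frass intestines, 13 higher and 3 lower (2.89% of features).

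In the liver 0 rows passed the filter, with edgeR and DESeq2 alike (called in 0% and 0% of 7213 features by edgeR and in 0% for low-frass and 0.0693% for high-frass by DESeq2). With the filter removed, 83 liver rows were fitted, and 0 were called for either diet (0.343% of features for low-frass and 0.761% for high-frass, edgeR) and 0 had an unadjusted p under 0.05 (3.78% and 5.27%; with the filter, 2.69% and 5.19%). The fit of diet by tissue tested 7 rows, called 0 (background 0%) and gave 0 at an unadjusted p under 0.05 (2.91% and 4.21%).

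Summed over all 203 rows, control, low-frass and high-frass intestines had means of 18.8 ± 6.70, 16.6 ± 6.20 and 33.2 ± 20.3 CPM (TMM, SD, n = 4 each). The high-frass mean was 1.77 times the control mean, but 1.47 times without LOC108277905, and leaving out a library gave 1.26 to 2.05. High-frass intestines held 3 of the 6 cubn-high libraries and 1 of the slc15a1b-high ones. Diet and cluster were thus unevenly mixed. Within the cubn-high cluster the ratio was 1.57, from high-frass libraries at 62.0, 19.7 and 33.0 CPM and control libraries at 26.4 and 22.4 CPM. Within the slc15a1b-high cluster it was 1.38, from 1 high-frass library at 18.2 CPM and control libraries at 12.8 and 13.4 CPM. The low-frass ratio was 0.885, and 1 and 1.07 within the cubn-high and slc15a1b-high clusters, the former from 1 low-frass library. In the kept livers the means were 3.58 ± 1.98 CPM in control (n = 4), 2.83 ± 0.783 CPM in low-frass (n = 3) and 2.17 ± 0.356 CPM in high-frass (n = 3) libraries, ratios of 0.792 and 0.607 on 204, 125 and 91 counts, and the groups overlapped.

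The 2 removed livers were unlike each other. The library labelled low-frass liver replicate 3 had 346 segment counts in 76 rows, against 20 to 82 counts in 12 to 26 rows of the kept livers. Of these, 129 lay in chromosome 9 V rows (37.3%, against 0% to 13.6% in the kept livers and 8.62% to 23.9% in the intestine), 43 of them in LOC124628514. Its C share was 12.7%. Across the 203 rows, its log2 CPM correlated at a median Pearson r of 0.545 (0.434 to 0.603) with the 12 intestine libraries and 0.210 (0.0345 to 0.333) with the 10 kept livers, a description across rows that share library and depth. With the intestine library of its own pool code r was 0.465. Its T-cell list stood at 246 CPM with library totals, against at most 191 CPM in the intestine, where values are TMM-scaled, so the 2 scales differ. High-frass liver replicate 3 had 35 counts in 12 rows and a C share of 62.9%, within the range of the kept livers for all 3 values. With all 12 livers, the 2 removed ones scaled by library totals only, the low-frass ratio was 2.29 in place of 0.792. The TMM factor of the library labelled low-frass liver replicate 3 was 2.19, against 0.41 to 0.529 in the kept livers. The ratio thus depends on how that library is scaled, and it was not computed with that factor.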

How the data were processed

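RNA of pooled intestine and liver was sequenced in 24 libraries. The deposited counts are raw whole numbers that the authors made by trimming reads with Trimmomatic 0.38, aligning them with STAR 2.7.8a to Coco_2.0 and counting exons by parent with HTSeq 0.9.0, without strand. By HTSeq's default, reads that match several segments equally are not counted, so segments similar to each other lose counts. The rows follow a rule on row names, but that rule and the gene lists were chosen with earlier results of these data known, and the clusters and lead row come from the data.

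Fits used edgeR 4.0.16 (quasi-likelihood test, TMM, filterByExpr with a minimum count of 10) in R 4.3.3 over all features, with Benjamini-Hochberg adjustment and a call at adjusted p under 0.05 and fold above 2, and were tested on simulated data. DESeq2 1.42.0 was an alternative. Diet fits used the 3 diets of a tissue in 1 fit, without a block, and 10 livers. Tissue fits used 22 libraries. CPM per library used library totals, or TMM factors of all 24 libraries rescaled to a geometric mean of 1 within each tissue. The 2 removed livers were scaled by library totals only. For likeness of libraries, 0.1 CPM was added before log2. A group without counts was set to a floor of 3 counts over the group, ratios with 1 to 3 liver counts carry exact 95% counting intervals, and shares carry Wilson 95% intervals. At 10 counts, counting error alone is large, which limits nearly every row. Not every pair of same-numbered samples correlated above 0.1, so replicate numbers were not taken to pair diets. Pool codes recur in both tissues, and the study's methods describe both tissues as taken from the sampled fish, so the pool code was tried as a block, although that an equal code marks the same fish is not stated in the sources used here.

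Rows named were the 10 highest in intestine, the 5 highest in liver, all counted C rows, tissue calls, diet extremes and rows whose clusters did not overlap; others are marked as chosen later. Stretches join rows under 500 kb apart, and neighbours are named genes within 150 kb.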

Additional observations from a re-analysis of the deposited data

Results flagged for a closer look

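In 10 of 55 groups of 4 libraries with a range of 10 or more counts, 1 library stood far from the other 3 by Dixon's criterion. Chance gives this in about 1 of 20 groups of normal values, a rate that does not hold for skewed counts or for rows named for their high level, so the number of groups is a description. V rows of chromosome 2 had 624 counts in high-frass intestine replicate 1, against 98 to 204 in the other high-frass intestines. LOC108277905 had 353 counts in high-frass replicate 1 (others 1 to 3) and 46 in low-frass replicate 3 (others 0 to 3). LOC108277968 had 61 in control replicate 3 (others 6 to 13) and 19 in low-frass replicate 2 (others 5 to 9). LOC128634961 had 101 in high-frass replicate 3 (others 3 to 8), and LOC128634930 had 53 in low-frass replicate 3 (others 0 to 2). V rows of chromosome 19 had 10 in low-frass replicate 3 (others 0 to 1), LOC108274554 had 20 in high-frass replicate 1 (others 0 to 1) and LOC108277563 had 13 in high-frass replicate 4 (others 1 to 3). The groups share libraries and rows, so they are not separate trials.

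The library labelled low-frass liver replicate 3, left out of the comparisons, had 346 segment counts against 20 to 82 in control livers. Its V rows had 302 counts (10 to 26 in control livers). By chromosome, V rows had 129 counts on chromosome 9 (0 to 2 in control livers), 78 on chromosome 2 (6 to 17), 30 on chromosome 7 (0), 28 on chromosome 25 (0 to 1), 23 on chromosome 14 (3 to 7), 9 on chromosome 19 (1 to 4) and 5 on chromosome 8 (0).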

How the results depend on the processing

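The count of segments called for diet was 0 in every alternative, with the replicate number as a block and the cluster as a block included, and the interaction gave 0 with and without the pool code as a block. Tissue calls were 3 with DESeq2, DESeq2 size factors or the pool code as a block, 2 with all 12 livers, 6 with library totals, 23 without the filter, 0 with control-fed libraries only (1 row tested, 0 at an unadjusted p under 0.05, edgeR; DESeq2 was not run on these) and 1 to 6 when a replicate number was left out (5 higher and 1 lower without replicate 1). In the tissue fit, library totals gave 1.57 for LOC128634930, 1.22 for LOC108262917, 1.39 for LOC108261469 and 2.82 for LOC108277968, and leaving out a replicate number gave -0.46 to 0.76, -1.21 to 0.05, -1.39 to -0.02 and 0.51 to 1.41 for these rows. In high-frass intestine, LOC108277968 was at 0.13 with the replicate block and 0.19 with the cluster block, and LOC108261469 at 0.11 with the replicate block and 0.01 without the filter. Leaving out a library gave, in low-frass intestine, -0.28 to 0.79 for LOC108280178, -0.86 to 0.11 for LOC124628514, -1.78 to 0.09 for LOC108277968 and -0.09 to 0.52 for LOC108262917. In high-frass intestine it gave 0.97 to 1.95 for LOC124628514, -0.09 to 0.52 for LOC108280178, -0.60 to 0.99 for LOC108277968 and -0.36 to 0.77 for LOC108261469. With all 12 livers, an alternative chosen after seeing the data, the low-frass over control liver ratio was 2.29, the C share 40.3% and the chromosome 9 V share 17.1%. The added library labelled low-frass liver replicate 3 holds 346 counts, which moves the shares. The ratio takes that library on library totals and the kept livers on TMM within the tissue, so it also depends on scale. The causes of the other changes were not tested. Same-numbered libraries correlated at -0.651 to 0.464 in the intestine and -0.153 to 0.266 in liver, and equal pool codes at -0.05 to 0.142. Alternatives also chosen after seeing the data were those without LOC108277905 or high-frass replicate 1, those within clusters, and those leaving libraries out of sums and shares.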
